A study of Homo sapiens with 18 samples.

Results

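The genes described here encode the replicative helicase and the proteins that load it: MCM2, MCM3, MCM4, MCM5, MCM6 and MCM7, the activation factor MCM10, and the loading factors ORC1, CDC6 and CDT1. They were taken as a fixed list of 10 genes, all found among the 19974 protein-coding genes on chromosomes 1 to 22 and X in the RefSeq table. The data are MAX peaks from chromatin immunoprecipitation with an added mouse reference genome (ChIP-Rx) in U2OS, a human osteosarcoma line. In these cells the endogenous MYC gene had been knocked out and an inducible MYC added, in the mutant form named 3A, the mutant form named 7A, or wild type (WT). Each form was kept 24 h with doxycycline (Dox) at 1 µg/ml or without it (PBS), and 10% mouse NIH3T3 cells were mixed in. The labels list 12 MAX immunoprecipitations, 2 for each combination of MYC form and Dox, and 6 inputs. They do not say which residues 3A and 7A alter, nor whether a line is 1 clone. The antibody field names MAX, whereas the protocol text speaks of an anti-FLAG antibody.

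The analysis used 3 peak lists, with 27294 peaks for 3A, 25159 for 7A and 34622 for WT. No list separates replicates or Dox from no Dox, so every value below describes 1 list, carries no replicate error and tests no difference between MYC forms. Library depth is not given in the lists. The fold enrichment of a peak is the authors' linear ratio of MAX signal to background at the summit. The sources used here do not name the background libraries: if they were the no Dox immunoprecipitations, each fold would be Dox over no Dox, and if they were inputs, MAX over input. Every fold and rank below carries that limit. The median fold enrichment was 11 in 3A, 11.1 in 7A and 10.7 in WT. A rank counts down from the highest fold enrichment of a list, and the percent rank is that rank as a percentage of the list length, so small values mark strong peaks. Lists of unlike length do not share a rank scale, so percent ranks are set side by side and read within a list.

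A cell copies its DNA once per division because origins are licensed before S phase and fired within it. The origin recognition complex, which includes ORC1, together with CDC6 and CDT1 loads the ring of MCM2 to MCM7 onto DNA. MCM10 then helps to turn the loaded ring into an active helicase. E2F factors are known to drive many of these genes when cells enter the cycle. MYC binds the E-box CACGTG as a pair with MAX, and MAX also pairs with MXD, MNT and MGA repressors, so a MAX peak does not say which partner was present.

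Promoters from RefSeq (GRCh38.p14), which run from 250 bases before to 50 after an annotated start, were at hand for 8 of the 10 genes, and MCM7 had 3 of them. The printed ones, 5′ to 3′, carry the motifs that the peak positions below are set against: MCM2 and MCM7 hold the E-box, MCM3 a variant E-box next to its summits, MCM10 the same variant 20 to 100 bp from its summits, and CDC6 an E2F-like motif next to its summit. Capitals mark every match, on either strand, to the E-box CACGTG, its variant CACGCG, the E2F-like motifs TTCCCGC and TTGGCGC, and the CCAAT box. For MCM7 the promoter of the outermost start is shown.
MCM2 promoter, chr3:127598161-127598460, plus strand: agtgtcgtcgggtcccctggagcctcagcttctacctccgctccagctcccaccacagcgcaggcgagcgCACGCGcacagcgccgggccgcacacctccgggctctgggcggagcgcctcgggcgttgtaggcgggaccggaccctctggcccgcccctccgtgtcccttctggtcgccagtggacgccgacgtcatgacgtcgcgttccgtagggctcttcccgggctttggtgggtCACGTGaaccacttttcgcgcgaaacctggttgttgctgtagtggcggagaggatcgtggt
MCM7 promoter, chr7:100101348-100101647, minus strand: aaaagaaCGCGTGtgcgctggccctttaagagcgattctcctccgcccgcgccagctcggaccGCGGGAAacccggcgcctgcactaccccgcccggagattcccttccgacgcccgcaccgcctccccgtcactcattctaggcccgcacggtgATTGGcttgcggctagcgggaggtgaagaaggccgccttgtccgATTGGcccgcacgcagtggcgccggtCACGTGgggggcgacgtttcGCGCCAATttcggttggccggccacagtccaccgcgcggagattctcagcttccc
MCM3 promoter, chr6:52284693-52284992, minus strand: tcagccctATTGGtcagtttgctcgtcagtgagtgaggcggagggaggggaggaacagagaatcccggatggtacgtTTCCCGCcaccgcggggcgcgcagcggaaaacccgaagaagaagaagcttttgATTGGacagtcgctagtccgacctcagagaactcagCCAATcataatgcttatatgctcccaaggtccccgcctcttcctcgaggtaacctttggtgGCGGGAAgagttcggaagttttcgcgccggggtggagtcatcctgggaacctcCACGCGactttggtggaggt
MCM10 promoter, chr10:13161308-13161607, plus strand: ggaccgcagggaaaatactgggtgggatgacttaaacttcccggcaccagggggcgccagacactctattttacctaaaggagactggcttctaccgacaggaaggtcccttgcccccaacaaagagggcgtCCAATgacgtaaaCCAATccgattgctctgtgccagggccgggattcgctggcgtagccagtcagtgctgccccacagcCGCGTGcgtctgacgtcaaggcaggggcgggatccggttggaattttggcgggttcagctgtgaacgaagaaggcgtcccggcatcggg
CDC6 promoter, chr17:40287629-40287928, plus strand: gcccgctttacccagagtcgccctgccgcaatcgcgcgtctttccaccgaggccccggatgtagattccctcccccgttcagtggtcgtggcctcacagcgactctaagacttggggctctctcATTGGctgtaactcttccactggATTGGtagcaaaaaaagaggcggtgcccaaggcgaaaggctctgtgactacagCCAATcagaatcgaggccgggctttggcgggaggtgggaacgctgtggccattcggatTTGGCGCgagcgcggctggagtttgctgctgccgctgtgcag

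All 10 genes had a MAX peak in each list, counting summits inside the gene or within 2500 bp of its outer ends. Of all protein-coding genes, 67.7% had such a peak in 3A, 66.7% in 7A and 70.8% in WT, and 65.7% had one in all 3 lists. The 10 genes carried 12 peaks per list, and they were the same sites: each of the 12 WT peaks was overlapped by a 3A peak and by a 7A peak. Over all genes with a WT peak, the strongest one was overlapped in both mutant lists in 88.4% of cases. All but 2 of the 12 sites lay at one outer end or an annotated start. The others were a site deep inside MCM5 and one beyond CDT1.

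Summits lay close to annotated starts. Of the 8 genes with a listed start, 8 had a summit within 100 bp of it in 3A, 8 in 7A and 7 in WT. Among 15812 protein-coding genes with a listed start, with or without a peak, this held for 26.6% in 3A, 26.1% in 7A and 25.8% in WT. Those shares therefore mix having a peak with where its summit lies. The member beyond 100 bp in WT was CDT1, whose summit lay 123 bp before its start. Peaks and summits of the 3 lists are drawn gene by gene in the map of start sites.

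**Figure D1:**
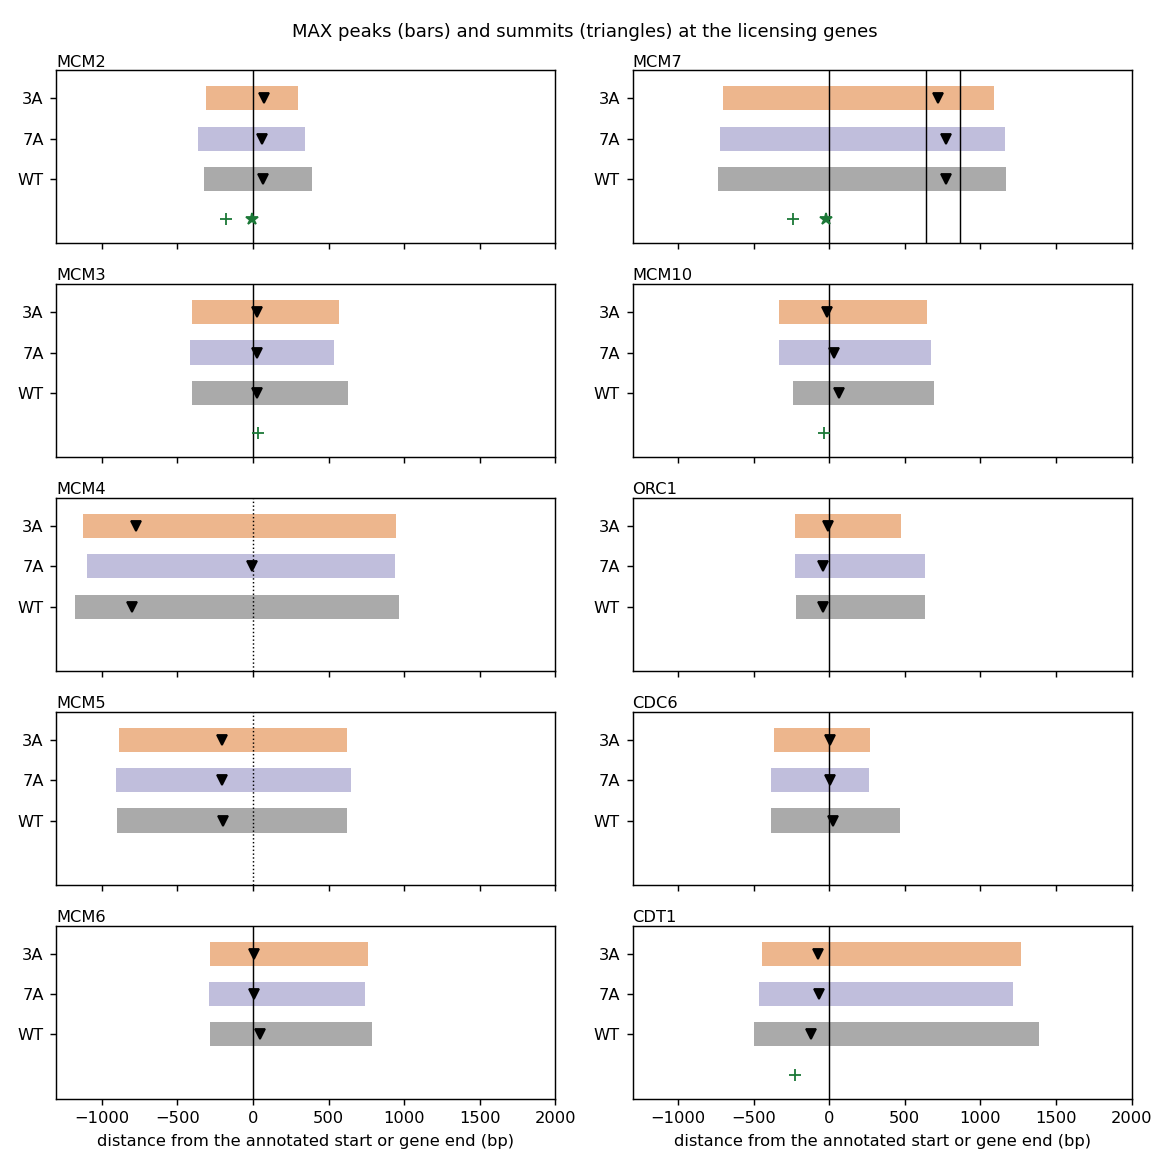
MAX peaks (bars) and their summits (triangles) at the start side of each gene, in the 3A, 7A and WT lists from top to bottom; the x axis gives the distance in bp from the annotated start (solid lines, transcription running to the right) or, for MCM4 and MCM5, from the lower-coordinate gene end (dotted lines, in genome direction). Green stars mark CACGTG and green crosses CACGCG in the promoters of genes with a listed start; the MCM4 summit is near the gene end in 7A and 771 and 799 bp away in 3A and WT.

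The helicase genes held several of the strongest peaks of the group. MCM2, whose product is a subunit of the ring, had a fold enrichment of 24.6 in 3A (rank 3093), 48.1 in 7A (rank 586) and 34.7 in WT (rank 2564). These are percent ranks of 11.3, 2.33 and 7.41, so the peak was within the strongest 12% of each list. Its summits stood 70, 63 and 65 bp after the start on chromosome 3, at 127598481 in 3A, 127598474 in 7A and 127598476 in WT. The E-box of the printed promoter lies 11 bases before the start and 78, 72 and 74 bp from those summits. The peak was 608 bp wide in 3A, 707 bp in 7A and 716 bp in WT, and the start of TPRA1, which runs the other way, lay 250, 243 and 245 bp from the summits, so the peak belongs to both genes by the same rule.

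MCM7, another ring subunit, shares its peak with AP4M1, a gene for an adaptor protein subunit. Its fold enrichment was 23.3 in 3A (percent rank 12.9), 45.9 in 7A (2.59) and 43.2 in WT (4.49). The peak ran on chromosome 7 from 100100304 to 100102097 in 3A, from 100100233 to 100102117 in 7A and from 100100228 to 100102130 in WT, and covered all 3 listed MCM7 starts. The summit was not at the outermost start with the E-box: that motif was 742 bp from the summit in 3A and 792 bp in 7A and in WT. It lay between the inner starts instead, 76 bp after the one at 100100754 in 3A and 98 bp before the one at 100100529 in 7A and WT. The start of AP4M1 was 116, 167 and 167 bp away. MCM7 also hosts the microRNA genes MIR106B, MIR93 and MIR25; the nearest, MIR106B, lay 6230 bp from the edge of the peak in 3A, 6159 bp in 7A and 6154 bp in WT.

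MCM4 encodes a further ring subunit and lies head to head with PRKDC, the gene of a DNA repair kinase, on chromosome 8. One broad peak covered both gene ends, 2072 bp wide in 3A, 2041 bp in 7A and 2142 bp in WT, the widest of the group in each list. Fold enrichments were 51.2 in 3A (rank 435), 34.5 in 7A (rank 1354) and 42.3 in WT (rank 1631). The highest point stood at different ends. In 3A it was 34 bp from the PRKDC end and 771 bp from the MCM4 end, and in WT 6 bp and 799 bp. In 7A it was 7 bp from the MCM4 end and 798 bp from the PRKDC end. The summits of 7A and WT were thus 792 bp apart, a distance reached by 2.02% of the 24497 overlapping 7A and WT pairs and by 10.2% of the 2174 pairs whose 7A peak was at least 1500 bp wide. Those of 3A and WT were 28 bp apart. The stretch common to the 3 lists was 95.3% of their union.

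MCM5, a ring subunit with no listed promoter, had 2 sites. The site at its lower-coordinate end on chromosome 22 spanned 35399253 to 35400764 in 3A, 35399236 to 35400790 in 7A and 35399242 to 35400762 in WT, and its summits fell within 4 bp of each other. Its fold enrichment was 20.6 in 3A (percent rank 16.7), 22.6 in 7A (14.1) and 14.0 in WT (35.4). By −log10 q the same site stood higher, at 2.71% in 3A, 3.34% in 7A and 9.44% in WT. The second site lay inside the gene, 46436, 46437 and 46416 bp from that end, and was narrow, at 287 bp in 3A, 358 bp in 7A and 340 bp in WT. It was the weakest of the 12 sites in 3A, with a fold enrichment of 8.24 (percent rank 70.2), and had 11.3 in 7A (48.3) and 11.3 in WT (46.8).

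MCM3 and MCM6, the remaining subunits, had single peaks over their starts with no other gene in range. MCM3 had fold enrichments of 22.1 in 3A (percent rank 14.5), 17.2 in 7A (24.5) and 23.3 in WT (16.2). Its summits stood 26, 27 and 30 bp after the start, 6, 6 and 2 bp from the variant E-box CACGCG near the end of the printed promoter. The MCM6 values differed more between lists, at 13.0 in 3A (percent rank 39.1), 28.1 in 7A (8.71) and 22.5 in WT (17.1), while its summits stayed 9, 4 and 44 bp from the start. Both genes' peaks were close to 1000 bp wide, from 952 to 1068 bp over the lists.

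MCM10, which acts after loading, had summits 16 bp before its start in 3A, 30 bp after it in 7A and 64 bp after it in WT. The fold enrichment was 23.9 in 3A (rank 3312, percent rank 12.1), 20.5 in 7A (rank 4380, 17.4) and 10.5 in WT (rank 17642, 51.0). The MCM10 peak was therefore nearer the top of both mutant lists and near the middle of the WT list. Ranked by −log10 q, it stood at 14.2% in 3A, 15.1% in 7A and 27.5% in WT. Its promoter has the variant E-box 39 bases before the start, 20, 66 and 100 bp from the summits.

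The loading factors had weaker start peaks than most ring subunits. ORC1, the largest subunit of the origin recognition complex, had fold enrichments of 14.8 in 3A (percent rank 31.3), 9.87 in 7A (57.5) and 10.1 in WT (53.2), the lowest start peak of the 10 genes in 7A and WT. Its summits were 7, 44 and 39 bp before a start that lies over 5000 bp inside the outer end of the gene, and 172, 135 and 140 bp from the start of PRPF38A, a splicing gene. With gene bodies left out, ORC1 had no peak in any list and the count became 9 of 10. CDC6, an ATPase that joins ORC to recruit the ring, had 13.9 in 3A (35.2), 12.5 in 7A (42.2) and 12.7 in WT (40.4), with summits 7, 6 and 27 bp after the start. The E2F-like motif of the printed CDC6 promoter, 8 bases after the start, was 4, 5 and 16 bp from them.

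CDT1, the partner of CDC6 in loading, had a start peak of 14.8 in 3A (percent rank 31.3), 20.9 in 7A (16.7) and 12.4 in WT (41.7). Summits stood 73, 66 and 123 bp before the start, and the peak was broad at 1714, 1684 and 1880 bp. A far stronger peak lay on chromosome 16 from 88810997 to 88812700 in 3A, 88810985 to 88812732 in 7A and 88810997 to 88812733 in WT. It counts for CDT1 because its summit was 2241, 2238 and 2240 bp beyond the gene, but it was nearer to the start of APRT, a purine salvage enzyme, at 429, 432 and 430 bp. By the same rule the peak also counts for GALNS, whose lower-coordinate end was 2235, 2238 and 2236 bp from the summits. The fold enrichments of this peak, 62.9, 45.4 and 44.8 (ranks 245, 671 and 1409), were the highest of the group in 3A and WT and the third highest in 7A.

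Over the 10 genes, the strongest peak of a gene had a median percent rank of 13.7 in 3A, 11.4 in 7A and 16.6 in WT. Over all protein-coding genes with a peak, the medians were 29.0, 31.5 and 25.3. With start peaks alone, CDT1 no longer counts through the site at APRT. The members' medians were then 15.6, 15.4 and 26.2, and the medians over all genes were not restricted in that way. When the strongest peak was chosen and ranked by −log10 q in place of fold enrichment, with CDT1 again free to count through that site, the medians were 7.32, 6.95 and 8.17 for the 10 genes and 29.5, 31.5 and 24.8 for all genes. MCM4 was within the strongest 6% of every list, and MCM2 and MCM7 were within the strongest 13%. Each of these peaks also counts for a neighbouring gene: PRKDC at MCM4, TPRA1 at MCM2 and AP4M1 at MCM7. In 3A and WT the MCM4 summit lay nearer to PRKDC than to MCM4.

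**Figure D2:**
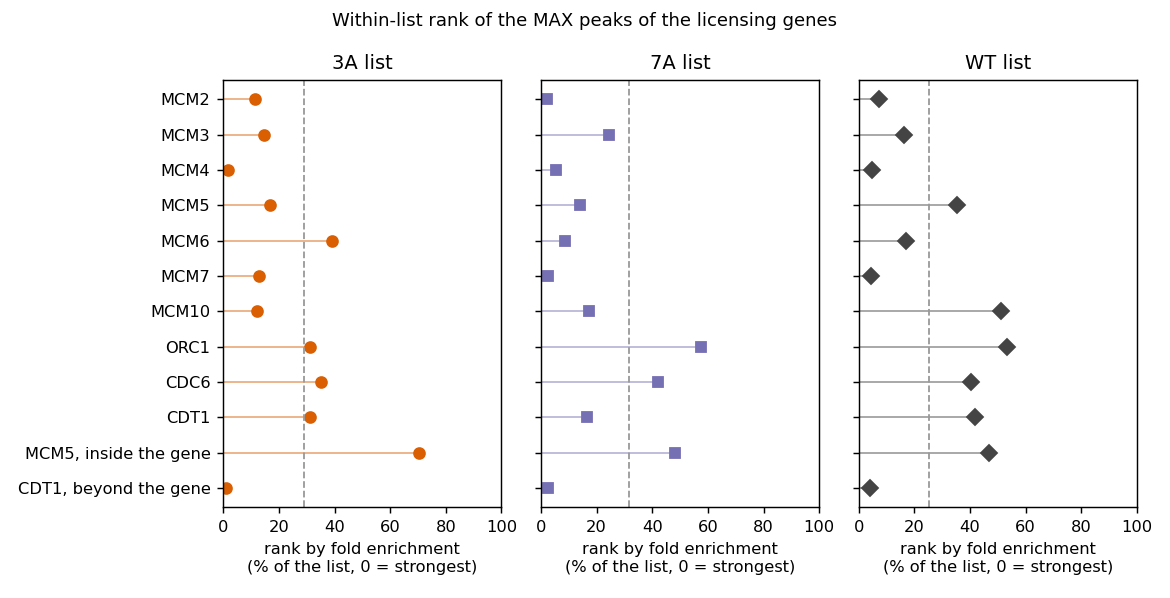
Percent rank of each site by fold enrichment (x axis, 0 = strongest peak of the list) in the 3A, 7A and WT lists, 1 row per site; dashed lines mark the median over all protein-coding genes with a peak, taking the strongest peak of each gene (29.0, 31.5 and 25.3). MCM4 stands left of the line in all 3 panels, and MCM10 stands left of it in the mutant lists at 12.1 and 17.4 and right of it in WT at 51.0.

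A scale of equal length came from the 23007 regions with a peak in all 3 lists, ranked among themselves. On it MCM10 ranked at 14.3% in 3A, 18.9% in 7A and 64.1% in WT, a difference from WT of −49.8 points for 3A and −45.2 for 7A. Differences at least as far from 0, in either direction, occurred in 3.68% of all shared regions for 3A and in 5.87% for 7A. The middle 90% of regions ran from −37.5 to 39.8 and from −38.4 to 38.9 points. MCM10 had the largest difference of all member sites for both mutants, so these shares describe an extreme site and are not a test. The MCM5 start peak stood at 19.6%, 15.4% and 47.8% (differences of −28.2 and −32.4), and the CDT1 start peak at 36.2%, 18.1% and 54.7% (−18.4 and −36.5). These lie inside the middle 90%. ORC1 was at 36.2% in 3A and near its WT place in 7A, at 60.8% against 66.3%. MCM6 was the start peak with the widest gap between the mutants, at 44.6% in 3A and 9.50% in 7A, with 24.5% in WT. CDC6, at 40.4%, 45.2% and 53.3%, and MCM3, at 17.0%, 26.6% and 23.3%, moved by less than 13 points from WT.

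Fold enrichment is a ratio, and its parts at the summit were solved from the deposited values, taking these to follow the formulas of MACS2. At MCM10 the MAX coverage was 191 in 3A, 288 in 7A and 293 in WT, in reads as scaled for each list. The background there was 7.02 in 3A, 13.1 in 7A and 27.0 in WT, beside list medians of 8.23, 12.2 and 12.1. By coverage alone MCM10 had percent ranks of 16.9, 15.9 and 19.9, so its lower WT rank by fold enrichment went with a high WT background, and the background itself had percent ranks of 62.9 in 3A, 44.7 in 7A and 3.41 in WT. At the MCM5 start the coverage was 536, 717 and 646 and the background 25.0, 30.8 and 45. That background was high in every list, within the top 0.429% in 3A, 0.938% in 7A and 0.0693% in WT. At the CDT1 start the coverage was 265, 372 and 445 and the background 16.9, 16.8 and 35.0, with percent ranks of 5.66, 23.8 and 0.609. At MCM4 the 3A background was low, at 6.0, with a coverage of 357. A high WT background did not always go with a low WT rank by fold enrichment. At MCM3 the WT background had a percent rank of 4.34, close to that of MCM10, while the fold enrichment had a percent rank of 16.2. The part of the background in these ranks was not tested.

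**Figure D3:**
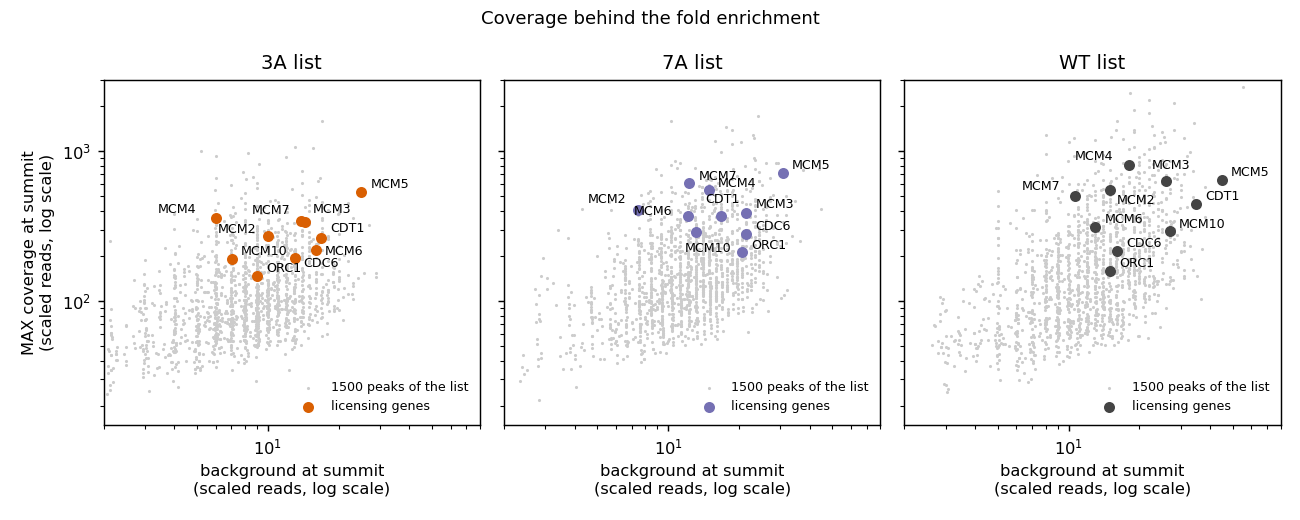
MAX coverage at the summit (y axis) against background (x axis), both in scaled reads on log axes and derived from each peak's fold enrichment and p-value, for the start peaks of the 10 genes (labelled) and 1500 peaks drawn from each list (grey). In WT the points of MCM5, CDT1 and MCM10 lie at the high-background side, at 45, 35.0 and 27.0. MCM3 lies just below MCM10 in WT background, at a higher coverage.

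Widths of start peaks ran from 608 to 2072 bp in 3A, from 648 to 2041 bp in 7A and from 716 to 2142 bp in WT. Their medians were 1011, 1022.5 and 1048 bp. Over all peaks within 1000 bp of a protein-coding gene end the medians were 833, 909 and 952 bp. Of the 10 start peaks, 7, 7 and 6 were wider than that median, which gene-end peaks exceed about as often as not. How far the edges matched differed between genes. The stretch common to the 3 lists made up between 74.4% (CDC6) and 97.1% (MCM5) of the union at start peaks and 97.4% at the site beyond CDT1. Over 22169 shared regions with 1 peak per list the median was 78.2%, so CDC6 lay below it. The upper edge of the CDC6 peak was at 40288148 in 3A, 40288144 in 7A and 40288348 in WT, and ORC1 and MCM2 had shares of 80.9% and 81.0%. Apart from MCM4 in 7A, summits of the 12 sites stood at most 80 bp from the WT summit in 3A and at most 57 bp in 7A. Over all overlapping pairs the median distance was 14 bp for both mutants.

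Promoter motifs were counted on both strands in the 8 genes with a listed start. The E-box CACGTG occurred in MCM2 and MCM7, and CACGTG or the variant CACGCG occurred in 5 genes, these and MCM3, MCM10 and CDT1. Of 22156 promoters of protein-coding genes, 8.34% held CACGTG and 20.9% either form, and of the 6253 with a WT summit inside the window, 15.7% and 37.2% did. An E2F-like motif, searched only as TTCCCGC or TTGGCGC, was found in 6 genes: MCM3, MCM6, MCM7, ORC1, CDC6 and CDT1. It was found in 11.5% of protein-coding promoters and in 17.3% of those with a WT summit. CCAAT was found in 6 genes as well, MCM3, MCM6, MCM7, MCM10, ORC1 and CDC6, and in 34.6% and 33.8% of the promoters. Members were counted per gene over all listed starts, whereas the shares are per promoter. The outermost MCM7 promoter alone held each of these motifs. The reverse strand of TTGGCGC can share letters with CCAAT, as it does in the ORC1 promoter and at the outermost MCM7 start. At ORC1 the E2F-like motif was 12, 25 and 20 bp from the summits in 3A, 7A and WT. Outside ORC1 and CDC6 the nearest one was farther off. It was 41, 34 and 91 bp away at CDT1 and 46, 47 and 50 bp at MCM3. At MCM6 it was 95, 90 and 130 bp away, and at MCM7 213, 264 and 264 bp. The variant E-box of CDT1 was 156, 164 and 106 bp from the summits. A match shows only that the letters are there.

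A chosen list of 53 other replication genes had MAX peaks as regularly. By the same gene rule, 53 of 53 had a peak in 3A, 53 in 7A and 53 in WT. Over all protein-coding genes the shares were 67.7%, 66.7% and 70.8%. The strongest peak of the 53 genes had a median percent rank of 19.0 in 3A, 19.1 in 7A and 18.4 in WT. Median percent ranks by role were 19.6, 28.9 and 20.0 for 6 origin recognition genes and 12.1, 15.8 and 13.4 for 7 genes of licensing control and MCM relatives. They were 25.9, 22.8 and 27.7 for 14 origin firing genes, 15.3, 18.2 and 18.3 for 23 genes of polymerases, clamp and their partners, and 28.5, 18.2 and 21.1 for 3 fork protection genes. The median of the 10 licensing genes was smaller than that of the 53 in each list, with overlapping ranges. With start peaks alone for the 10 genes, their WT median of 26.2 was larger than the 18.4 of the 53. The 18.4 takes the strongest peak at any position, so the 26.2 and the 18.4 are unlike measures.

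The other replication genes named here are those with the best WT ranks in each role, and they were not always the best ranked in 3A or 7A. Among origin recognition genes ORC4 ranked best in WT, with fold enrichments of 18.7 in 3A, 22.8 in 7A and 41.3 in WT, followed by LRWD1, which binds the complex, with 24.2, 15.8 and 35.5. In the licensing control group they were MCM9, a helicase relative, with 27.1, 32.6 and 41.7, and MCMBP, an MCM-binding protein, with 30.3, 44.3 and 39.2. DBF4 (28.5, 25.6 and 55.9) and its kinase partner CDC7 (45.6, 37.3 and 39.0), which together phosphorylate the loaded ring, ranked best in WT among the firing factors. POLE3, a subunit of polymerase epsilon, had 36.5, 36.9 and 80.8, and the primase subunit PRIM2 had 20.9, 24.4 and 62.8. CLSPN, a checkpoint adaptor at the fork, had 9.83, 19.1 and 28.0, and TIPIN, the partner of TIMELESS, 33.9, 26.9 and 19.8.

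**Figure D4:**
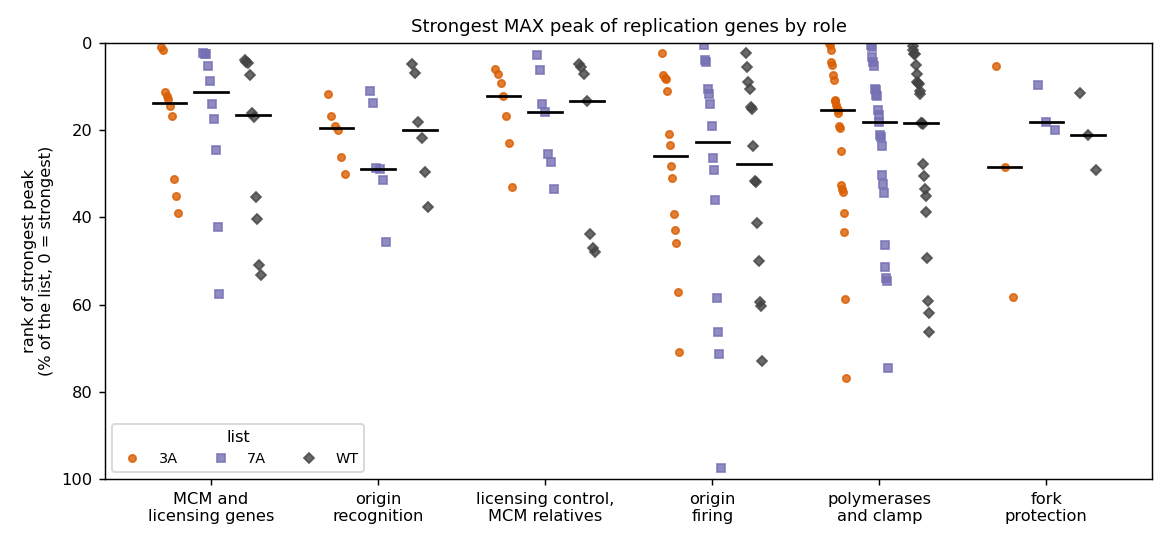
Percent rank of the strongest MAX peak of each gene (y axis, 0 = strongest, at the top) for the MCM and licensing genes and for 5 roles of other replication genes; points are genes, black bars are medians, and lists stand in the order 3A, 7A, WT. The medians of the MCM and licensing genes are 13.7, 11.4 and 16.6.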

How the data were processed

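MAX ChIP-Rx libraries of U2OS cells with 3A, 7A or WT MYC, with and without Dox, were represented by 1 peak list per MYC form. The submitters' processing notes name MACS2, Picard, SAMtools, Bowtie2 and cutadapt, and as builds hg38, hg19 and mm10, giving neither role nor version. Pooling of replicates, the control and the use of mouse reads are not given in the sources used here. The lists follow the narrowPeak layout. Their deposited columns hold a score, 10 times the −log10 q rounded down in 99.8% (3A), 99.6% (7A) and 99.6% (WT) of peaks, a linear fold enrichment ratio, −log10 p, −log10 q and the summit offset, all by the authors. Columns of other samples numbered 0. Positions are read as GRCh38 and printed counting from 1.

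A peak was given to every protein-coding gene (RefSeq, GRCh38.p14) with the summit inside it or within 2500 bp of an outer end. Lists were matched by an overlap of at least 1 bp. Coverage and background at each summit were solved with the formulas of MACS2, with (coverage + 1) / (background + 1) as the fold. On summits simulated with the same formulas, 99.4% (3A), 99.4% (7A) and 99.0% (WT) of coverages came back within 1 read. That checks the solving step only, and not whether the deposited columns follow those formulas. All 10 members and 53 other replication genes matched the table. No test was run, since each MYC form has 1 list. The members and gene lists were chosen with earlier results of these data known. Named are all members, genes that share their peaks, and per role the 2 other replication genes with the best WT rank; GINS4 is named as a gene lost under an alternative. The rank among shared regions and the use of start peaks alone were chosen after seeing the data. Scripts ran on Python 3.11.15 with NumPy 2.4.6, pandas 2.3.3, matplotlib 3.10.9 and SciPy 1.17.1.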

Additional observations from a re-analysis of the deposited data

How the results depend on the processing

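No paired analysis was possible because the lists do not separate replicates, and for the same reason no replicate could be left out. The counts of members and of other replication genes with a peak stayed within 1 of those reported under every alternative tried: a −log10 q of at least 10, windows of 1000 and 5000 bp, gene ends only, and lists of equal length. Gene ends only gave 9 of 10 members, without ORC1, and equal length 52 of 53 other genes in WT, without GINS4. The 12 WT sites were matched also with an overlap of 50% of both peaks. With summits within 100 bp, 7A matched 11, without MCM4. The median percent rank in 3A, 7A and WT was 15.6, 15.4 and 26.2 with 1000 bp and with start peaks alone, 12.9, 8.71 and 16.2 with gene ends only, and 7.32, 6.95 and 8.17 by −log10 q or −log10 p. Among shared regions it was 16.1, 12.4 and 23.9, and with equal length 14.8 in 3A and 22.9 in WT. With 1000 bp the site at APRT is lost to CDT1, and gene ends only lose ORC1. With equal length, ranks are percentages of 25159 peaks in every list. The cause of the other shifts was not tested. The median width was 1045, 1038 and 1068 bp with gene ends only and 976, 979.5 and 1035.5 bp with 5000 bp. Counting CACGCG as an E-box gave 5 members with one, in place of 2. Depth limits are unknown, since no list gives library sizes.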
